A study of Homo sapiens with 9 samples.

Results

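The genes described here are the 5 NFAT transcription factors NFATC1, NFATC2, NFATC3, NFATC4 and NFAT5, the 3 catalytic subunits of calcineurin PPP3CA, PPP3CB and PPP3CC, the calcineurin regulator RCAN1, and the phospholipase C gene PLCB4. They are 10 of the 20030 genes in the deposited tables and were picked by name, with earlier results of the comparisons with MHCC97L known. Their differences from MHCC97L are therefore given as a description with an error. Calls in these comparisons are counted only beside the share of all genes called, and nothing is read from them. The study's own list of altered Wnt signaling genes, drawn from these libraries, also holds NFATC1, NFATC4 and PLCB4.

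RNA was sequenced from 3 HCC lines grown in the same serum-containing medium, in 3 libraries per line and 9 libraries in all. MHCC97L is the wild-type HCC line. MHCC97L-Src was derived from it under rising concentrations of saracatinib, an inhibitor of Src family kinases, until it was stably resistant to 4 μmol/L. MHCC97L-Oxa was derived from MHCC97L as well and was stably resistant to 2 μmol/L oxaliplatin, a platinum drug that damages DNA. Each resistant line is a single selected line, so a difference between lines cannot be told apart from a property of the cells that happened to be selected. The study speaks of independent experiments, and the labels do not say which libraries came from separate cultures. The labels give the treatment as none for MHCC97L, saracatinib for MHCC97L-Src and oxaliplatin for MHCC97L-Oxa. They do not say whether the drug was still in the medium when RNA was taken.

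In the canonical pathway, receptors coupled to G proteins, or Frizzled receptors, activate phospholipase C, whose product releases calcium from internal stores. Calcium and calmodulin switch on the phosphatase calcineurin, which removes phosphates from NFATC1 to NFATC4 so that these factors enter the nucleus, while kinases such as GSK3 and DYRK send them out again. NFAT5 has the same kind of DNA-binding domain but responds to osmotic stress and lacks the calcineurin docking region, and RCAN1 is both an inhibitor of calcineurin and a classic target gene of NFAT. In the pathway column of the count table, 8 of the 10 genes were annotated to Wnt signaling, all but NFAT5 and RCAN1.

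RefSeq promoter windows (GRCh38.p14, 250 bases before and 50 after a start, so 300 bases each) were found for 5 of the 10 genes: 2 windows for NFATC1, 2 for NFATC2, 1 for NFATC3, 3 for NFATC4 and 6 for RCAN1. The 2 NFATC1 windows and 1 NFATC4 window are printed because these genes had the same pattern over the libraries, and 2 RCAN1 windows because the starts of this NFAT target gene differ. Capitals mark GGAAA, the core of the NFAT binding site, or TTTCC, its reverse complement.
NFATC1, chr18:79395680-79395979, + strand: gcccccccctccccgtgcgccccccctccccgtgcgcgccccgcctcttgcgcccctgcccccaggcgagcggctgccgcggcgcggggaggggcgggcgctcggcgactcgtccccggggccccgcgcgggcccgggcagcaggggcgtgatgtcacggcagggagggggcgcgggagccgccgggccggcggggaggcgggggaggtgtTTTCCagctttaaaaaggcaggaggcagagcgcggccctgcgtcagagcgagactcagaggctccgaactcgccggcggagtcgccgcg
NFATC1, chr18:79400049-79400348, + strand: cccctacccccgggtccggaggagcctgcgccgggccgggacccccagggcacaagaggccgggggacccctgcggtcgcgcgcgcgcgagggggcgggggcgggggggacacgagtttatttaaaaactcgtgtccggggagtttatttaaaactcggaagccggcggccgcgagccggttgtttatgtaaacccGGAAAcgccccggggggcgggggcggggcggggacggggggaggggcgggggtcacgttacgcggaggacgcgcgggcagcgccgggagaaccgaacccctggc
NFATC4, chr14:24366661-24366960, + strand: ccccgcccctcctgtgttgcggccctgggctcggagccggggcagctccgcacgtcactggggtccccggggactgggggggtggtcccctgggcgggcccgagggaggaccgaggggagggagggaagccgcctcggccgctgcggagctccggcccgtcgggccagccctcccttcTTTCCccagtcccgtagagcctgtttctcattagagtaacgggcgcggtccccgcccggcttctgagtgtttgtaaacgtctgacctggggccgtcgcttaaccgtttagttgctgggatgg
RCAN1 internal start, chr21:34526773-34527072, - strand: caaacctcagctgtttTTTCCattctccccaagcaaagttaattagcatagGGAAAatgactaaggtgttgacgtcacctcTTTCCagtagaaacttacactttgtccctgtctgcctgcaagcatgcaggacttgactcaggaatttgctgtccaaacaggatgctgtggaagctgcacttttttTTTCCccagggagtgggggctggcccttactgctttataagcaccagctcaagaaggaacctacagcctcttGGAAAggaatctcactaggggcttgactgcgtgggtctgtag
RCAN1 distal start, chr21:34615064-34615363, - strand: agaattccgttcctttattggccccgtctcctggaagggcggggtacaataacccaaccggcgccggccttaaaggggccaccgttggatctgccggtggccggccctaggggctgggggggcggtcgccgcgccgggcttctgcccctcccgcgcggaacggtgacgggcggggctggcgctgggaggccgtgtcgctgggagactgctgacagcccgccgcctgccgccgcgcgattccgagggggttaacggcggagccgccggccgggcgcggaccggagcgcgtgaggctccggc

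Of the 14 windows of the 5 genes, 7 held a match to GGAAA or TTTCC. For RCAN1 these were 3 of 6 windows, and the internal one shown held the most, 5 matches. The RCAN1 distal window shown held 0. Over all 35116 RefSeq windows of this length, 61.2% held at least 1 match and 0.74% held 5 or more. Both NFATC1 windows and the NFATC4 window shown held 1 match each, and the other 2 NFATC4 windows held 0. The NFATC1 windows had a GC content of 79.7% and 73.3% against a median of 58.7% over all windows, while the RCAN1 window with 5 matches had 48.0%. A match describes letters only, and gene counts cannot tell the starts of a gene apart.

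The libraries held 16970486 to 18209213 gene counts each, and 3 counts, used as the detection floor, corresponded to 0.165 to 0.177 CPM (counts scaled to the library total). This floor covers counting error only. MHCC97L replicate 1 stood apart: across 12175 genes, its deviation from the mean of the libraries had a Spearman correlation of -0.78 with the GC content of the transcripts, and GC content and length together held 66.0% of the variance of that deviation. In the other 8 libraries this correlation lay between -0.26 and 0.70. It was highest in MHCC97L-Src replicate 2, at 0.70, where GC content and length held 47.2% of the variance. MHCC97L-Src replicate 1 followed at 0.54, with 25.2%, so MHCC97L-Src libraries were shifted as well, in the other direction. Of 14 markers of hepatocytes and liver tumor cells, 8 were at 3 counts or fewer in every library, among them ALB and AFP, and HNF4A and APOA1 had at most 13 and 4 counts. The summed level of the 14, 2990 to 6380 CPM, was mostly that of the keratins KRT8 and KRT18, which epithelial cells of many kinds express. Lymphocyte markers summed to 0.507 to 1.65 CPM, with PTPRC and CD3E at 3 counts or fewer throughout. The 5 myeloid markers summed to 59.4 to 98.8 CPM in MHCC97L and MHCC97L-Src and 156 to 159 CPM in MHCC97L-Oxa. CD68 carried this sum, at a mean of 145 CPM in MHCC97L-Oxa, while LYZ was at 0 counts in every library. CD14 was higher in both resistant lines, at 5.8 CPM in MHCC97L-Src and 4.77 CPM in MHCC97L-Oxa against 1.01 CPM in MHCC97L. CSF1R was lower in both, at 2.4 and 7.48 CPM against 11.7 CPM in MHCC97L. ITGAM had at most 8 counts. The 5 fibroblast markers summed to 78.0 to 97.1 CPM in MHCC97L-Src, below the 110 to 194 CPM in MHCC97L and 146 to 165 CPM in MHCC97L-Oxa. Of these, DCN was at a mean of 17.3 CPM in MHCC97L-Src against 70.3 CPM in MHCC97L and 65.8 CPM in MHCC97L-Oxa. COL1A1 was at 63.3 against 62.5 and 77.2 CPM in the same order, and ACTA2 at 8.97 against 6.99 and 13.2 CPM. COL1A2 and PDGFRA were at 3 counts or fewer throughout. The part of these markers in the results was not tested. In bulk RNA, fewer expressing cells and less RNA per cell cannot be told apart.

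NFATC1, a factor best known from lymphocytes and osteoclasts, was higher in all 6 libraries of the resistant lines than in MHCC97L. Its level was 1.02, 2.42 and 2.00 CPM in MHCC97L replicates 1, 2 and 3. It was 5.19, 7.01 and 5.23 CPM in MHCC97L-Src and 4.67, 5.02 and 4.61 CPM in MHCC97L-Oxa. The lowest resistant library was above the highest MHCC97L library, with 82 against 43 counts. Relative to MHCC97L its log2 fold change was 1.74 ± 0.51 (SE, n = 3 per line) in MHCC97L-Src and 1.38 ± 0.46 in MHCC97L-Oxa. GENCODE release 29 places NFATC1 on chromosome 18 from 79395856 to 79529325 (GRCh38), and its longest transcript had a GC content of 60.2%, the highest of the 10 genes.

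NFATC4, a factor expressed widely outside the immune system, had the same pattern. It stood at 1.53, 1.58 and 1.84 CPM in MHCC97L, against 4.90, 5.24 and 4.09 CPM for MHCC97L-Src and 3.79, 3.91 and 4.45 CPM for MHCC97L-Oxa. Again each resistant library was above each MHCC97L library, by counts of 69 to 89 against 27 to 33. Its log2 fold change reached 1.60 ± 0.43 in MHCC97L-Src and 1.30 ± 0.37 in MHCC97L-Oxa. NFATC4 lies on chromosome 14 from 24365673 to 24379604, with a GC content of 58.6%.

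The other NFAT factors behaved differently. NFATC3, the most abundant of them, was at 88.6, 13.2 and 22.9 CPM in MHCC97L, against 11.5, 8.37 and 13.8 CPM for MHCC97L-Src and 10.5, 13.4 and 12.7 CPM for MHCC97L-Oxa. MHCC97L replicate 1 alone was far above the rest, and MHCC97L replicate 2 lay among the resistant libraries. Its log2 fold change came to -1.77 ± 0.62 in MHCC97L-Src and -1.69 ± 0.62 in MHCC97L-Oxa, and without MHCC97L replicate 1 it was -0.62 ± 0.33 and -0.51 ± 0.26. NFATC3 lies on chromosome 16 from 68084751 to 68229259. NFAT5, the osmotic stress factor, showed 39.4, 3.72 and 15.4 CPM in MHCC97L, against 6.46, 5.77 and 5.40 CPM for MHCC97L-Src and 5.27, 8.98 and 8.78 CPM for MHCC97L-Oxa. Here MHCC97L held both the highest and the lowest library of the 9, so the lines overlapped. Its log2 fold change was -1.60 ± 0.70 in MHCC97L-Src and -1.27 ± 0.71 in MHCC97L-Oxa. Without MHCC97L replicate 1 the values were -0.61 ± 0.52 and -0.24 ± 0.58. NFAT5 lies on chromosome 16 as well, from 69565094 to 69704666.

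NFATC2, a main NFAT factor of T cells, was scarce, and it was the only 1 of the 10 genes that passed the test between the resistant lines. It had 49, 32 and 16 counts in MHCC97L, against 15, 5 and 11 for MHCC97L-Src and 56, 66 and 23 for MHCC97L-Oxa. Each MHCC97L-Src library was below each library of the other lines, although 15 and 16 counts nearly touched. In CPM, the mean was 1.82 ± 0.943 (SD, n = 3) in MHCC97L, against 0.595 ± 0.287 for MHCC97L-Src and 2.68 ± 1.24 for MHCC97L-Oxa. The log2 fold change from MHCC97L was -1.52 ± 0.58 in MHCC97L-Src and 0.59 ± 0.55 in MHCC97L-Oxa. NFATC2 lies on the minus strand of chromosome 20 from 51386957 to 51562831.

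**Figure D1:**
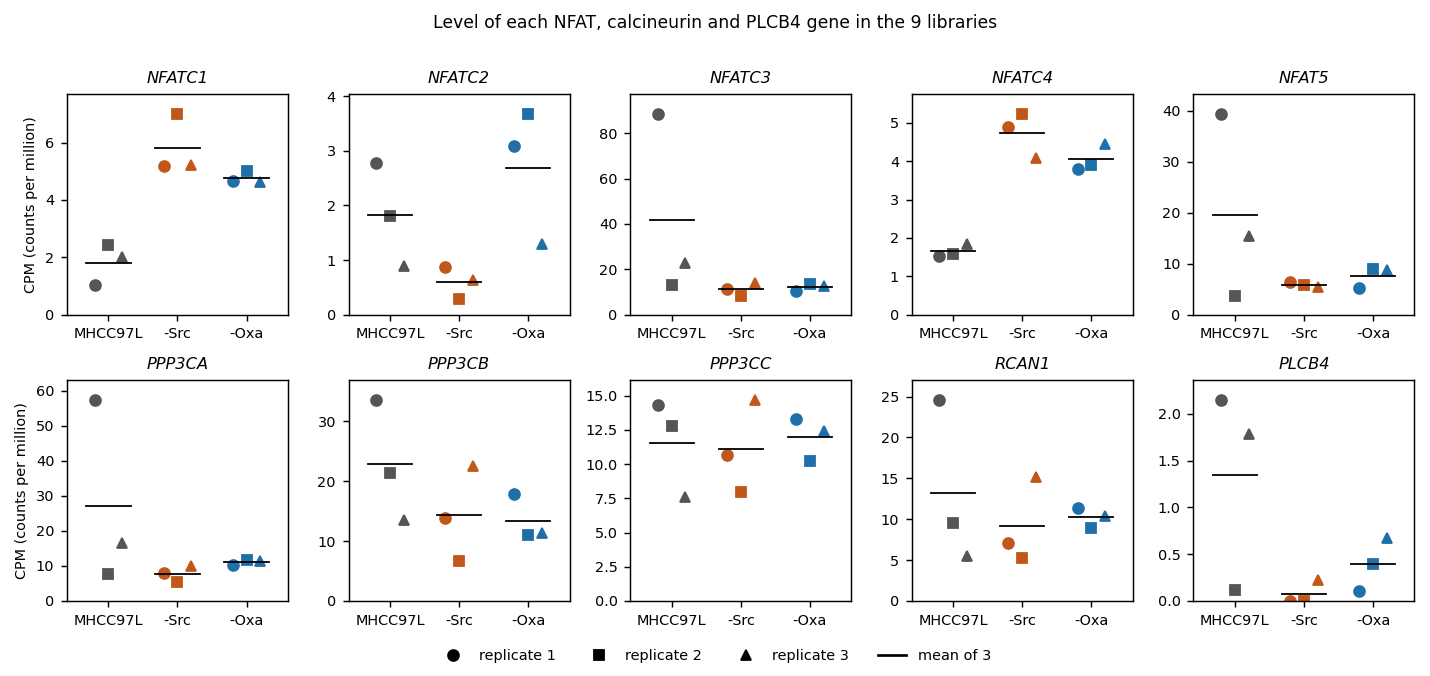
Level of each of the 10 genes in CPM (linear axis from 0) in the 9 libraries, with the replicate number as the marker shape and the mean of each line as a bar. NFATC1 and NFATC4 are above MHCC97L in all 6 resistant libraries, whereas NFATC3, NFAT5 and PPP3CA are highest in MHCC97L replicate 1, at 88.6, 39.4 and 57.4 CPM.

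As a share of the summed FPKM of the 5 NFAT factors, which compares genes per transcript length, NFATC3 held 64.8% to 80.1% in MHCC97L, against 33.1% to 54.0% for MHCC97L-Src and 44.7% to 46.7% for MHCC97L-Oxa. NFATC1 held 1.03% to 14.5% in MHCC97L, against 23.9% to 34.7% for MHCC97L-Src and 19.9% to 22.6% for MHCC97L-Oxa. The NFATC4 share was 1.33% to 6.86%, 11.7% to 20.7% and 12.6% to 15.0% in the same order. For these 3 genes the shares in the resistant lines did not overlap those in MHCC97L. Shares within a library depend on each other, so these are not separate observations. They were not corrected for GC content, and the values of 80.1%, 1.03% and 1.33% were those of MHCC97L replicate 1. The summed FPKM itself was 2.73 to 14.7 in MHCC97L, against 3.25 to 3.42 for MHCC97L-Src and 3.19 to 3.87 for MHCC97L-Oxa.

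In FPKM, the order of the NFAT factors in MHCC97L was NFATC3 at 5.55 ± 5.42 (SD, n = 3), NFAT5 at 1.18 ± 1.09, NFATC1 at 0.272 ± 0.123, NFATC4 at 0.204 ± 0.0217 and NFATC2 at 0.136 ± 0.0673. All neighbours in that order overlapped between libraries. In MHCC97L-Src the order was NFATC3 at 1.5 ± 0.39, NFATC1 at 0.932 ± 0.171, NFATC4 at 0.544 ± 0.138, NFAT5 at 0.341 ± 0.0351 and NFATC2 at 0.0486 ± 0.0219, where only NFATC3 and NFATC1 overlapped. In MHCC97L-Oxa the values were 1.61 ± 0.147 for NFATC3, 0.754 ± 0.03 for NFATC1, 0.483 ± 0.00507 for NFATC4, 0.464 ± 0.131 for NFAT5 and 0.219 ± 0.104 for NFATC2, where NFATC4 and NFAT5, and NFAT5 and NFATC2, overlapped. NFATC1 and NFATC4 thus stood above NFAT5 in the mean of both resistant lines and below it in MHCC97L.

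**Figure D2:**
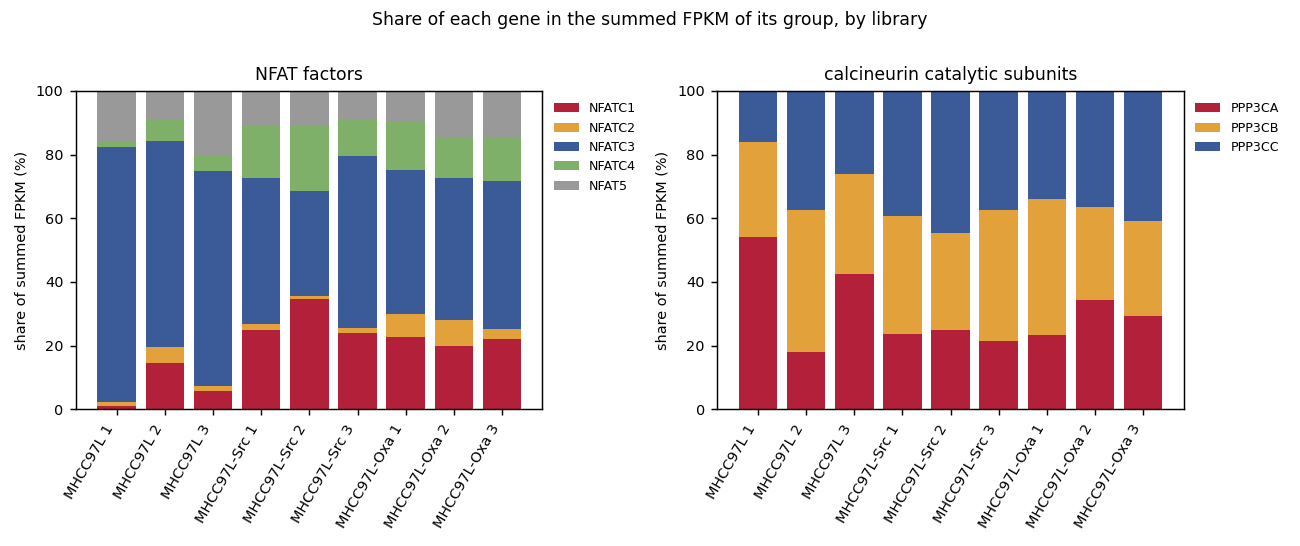
Stacked bars give each gene's share (%) of the summed FPKM of the 5 NFAT factors (left) and of the 3 calcineurin catalytic subunits (right) in each of the 9 libraries. The NFATC3 share is at least 64.8% in the MHCC97L libraries and at most 54.0% in the resistant libraries, where NFATC1 and NFATC4 take larger shares. The FPKM values are not corrected for GC content.

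Of the calcineurin subunits, PPP3CA, the catalytic subunit alpha, was at 57.4, 7.72 and 16.6 CPM in MHCC97L, against 8.02, 5.30 and 9.84 CPM for MHCC97L-Src and 10.4, 11.8 and 11.5 CPM for MHCC97L-Oxa. As for NFATC3, MHCC97L replicate 1 was far above the other libraries and replicate 2 was not above the resistant lines. PPP3CB, the beta subunit, measured 33.6, 21.4 and 13.5 CPM in MHCC97L, against 13.9, 6.72 and 22.5 CPM for MHCC97L-Src and 17.9, 11.1 and 11.3 CPM for MHCC97L-Oxa. PPP3CC, the gamma subunit, measured 14.3, 12.8 and 7.62 CPM in MHCC97L, against 10.7, 7.95 and 14.7 CPM for MHCC97L-Src and 13.3, 10.2 and 12.4 CPM for MHCC97L-Oxa. The libraries of the lines overlapped for both PPP3CB and PPP3CC. PPP3CA lies on chromosome 4 from 101023409 to 101348278, PPP3CB on chromosome 10 from 73436428 to 73496024 and PPP3CC on chromosome 8 from 22440819 to 22541142.

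The log2 fold change of PPP3CA was -1.71 ± 0.66 in MHCC97L-Src and -1.20 ± 0.63 in MHCC97L-Oxa. Without MHCC97L replicate 1 it was -0.60 ± 0.40 and -0.05 ± 0.33. PPP3CB gave -0.61 ± 0.49 and -0.73 ± 0.41, and PPP3CC gave 0.00 ± 0.41 and 0.07 ± 0.37, in the same order. The 95% confidence interval of PPP3CC reached from -0.94 to 0.94 in MHCC97L-Src, so changes up to that size in either direction are not excluded. The interval does not say how large a change these libraries could detect. Exons of PPP3CB overlap those of the antisense gene PPP3CB-AS1, and those of NFATC3 overlap ESRP2 on the other strand, which had 90 counts over the 9 libraries. The kit marks strand, but whether the counting used it is not given in the sources used here.

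Per transcript length, the 3 calcineurin subunits were closer to each other than the NFAT factors. In MHCC97L, PPP3CA was at 5.16 ± 4.91 FPKM (SD, n = 3), PPP3CB at 4.04 ± 1.78 and PPP3CC at 2.8 ± 0.75. MHCC97L-Src had 1.48 ± 0.51 FPKM of PPP3CA, 2.46 ± 1.34 of PPP3CB and 2.57 ± 0.888 of PPP3CC, and MHCC97L-Oxa had 2.05 ± 0.176, 2.48 ± 0.873 and 2.66 ± 0.227. The mean order was thus PPP3CA, PPP3CB, PPP3CC in MHCC97L and the reverse in both resistant lines, but neighbours in each order differed by less than the larger of their SDs. As a share of their summed FPKM, PPP3CA held 17.9% to 54.2% in MHCC97L, 21.3% to 24.8% in MHCC97L-Src and 23.4% to 34.4% in MHCC97L-Oxa, so the shares of the lines overlapped. The summed FPKM was 7.43 to 19.8 in MHCC97L, 3.91 to 9.37 in MHCC97L-Src and 6.55 to 8.19 in MHCC97L-Oxa.

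RCAN1, which binds and inhibits calcineurin, overlapped between all lines. It stood at 24.6, 9.58 and 5.51 CPM in MHCC97L, against 7.15, 5.24 and 15.2 CPM for MHCC97L-Src and 11.4, 8.93 and 10.4 CPM for MHCC97L-Oxa. The MHCC97L libraries enclosed those of MHCC97L-Oxa, and MHCC97L-Src replicate 3 lay above the other 2 of its line. Its log2 fold change was -0.44 ± 0.60 in MHCC97L-Src and -0.32 ± 0.52 in MHCC97L-Oxa, and it turned positive, to 0.31 ± 0.49 and 0.49 ± 0.31, without MHCC97L replicate 1. In FPKM it was at 1.44 ± 0.973 (SD, n = 3), 1.03 ± 0.518 and 1.16 ± 0.179. RCAN1 lies on the minus strand of chromosome 21 from 34513142 to 34615142.

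PLCB4, a phospholipase C activated by Gq proteins, was at the edge of detection. It had 38, 2 and 32 counts in MHCC97L, against 0, 0 and 4 for MHCC97L-Src and 2, 7 and 12 for MHCC97L-Oxa. MHCC97L replicates 1 and 3 were the highest of the 9 libraries, while MHCC97L replicate 2 was under the floor of 3 counts, as were 2 MHCC97L-Src libraries and 1 MHCC97L-Oxa library. The gene was removed by the low count filter in both comparisons that include MHCC97L-Src. In MHCC97L-Oxa against MHCC97L its log2 fold change was -1.72 ± 0.93, and without MHCC97L replicate 1 it was -1.19 ± 1.09. PLCB4 lies on chromosome 20 from 9068763 to 9481242.

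At an adjusted p under 0.05 in edgeR's quasi-likelihood test, 0 of the 9 genes tested were called in MHCC97L-Src against MHCC97L, where 2.13% of all 12037 genes tested were called. At an unadjusted p under 0.05 the count was 6, where 29.5% of all genes passed, and DESeq2 called 4, where it called 17.6% of all genes. In MHCC97L-Oxa against MHCC97L, 0 of 10 were called against 0.953% of 12064 genes, 3 passed unadjusted against 22.4% of all genes, and DESeq2 called 1 against 7.4%. NFATC1 and NFATC4 were higher in every library of MHCC97L-Src, as were 18.3% of all genes tested, and in every library of MHCC97L-Oxa, as were 19.1%. NFATC2 was lower in every MHCC97L-Src library, as were 12.2% of the genes, and no member was lower in every MHCC97L-Oxa library, against 10.5%. Both comparisons share the MHCC97L libraries, so their values are not independent of each other.

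Several of these differences moved with GC content. Over the 9 genes tested, the Spearman correlation of the log2 fold change with transcript GC content was 0.63 in MHCC97L-Src, and over all 11943 genes with a GC content it was 0.69. In MHCC97L-Oxa it was 0.87 over 10 genes and 0.63 over 11964 genes. After correction for GC content and length it was 0.30 over the 9 genes and 0.05 over all genes in MHCC97L-Src. In MHCC97L-Oxa the corrected values were 0.75 over the 10 genes and 0.06 over all genes. These values are descriptions, since the genes share the same libraries. NFATC1 and NFATC4, with 60.2% and 58.6% GC, were the highest, and the 5 genes with the lowest GC content, 39.2% to 45% (PLCB4, NFAT5, PPP3CB, PPP3CA and RCAN1), all had a negative fold change where tested. Among all genes under 45% GC the median log2 fold change was -1.29 in MHCC97L-Src and -1.05 in MHCC97L-Oxa, and among genes over 55% GC it was 0.34 and 0.20.

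**Figure D3:**
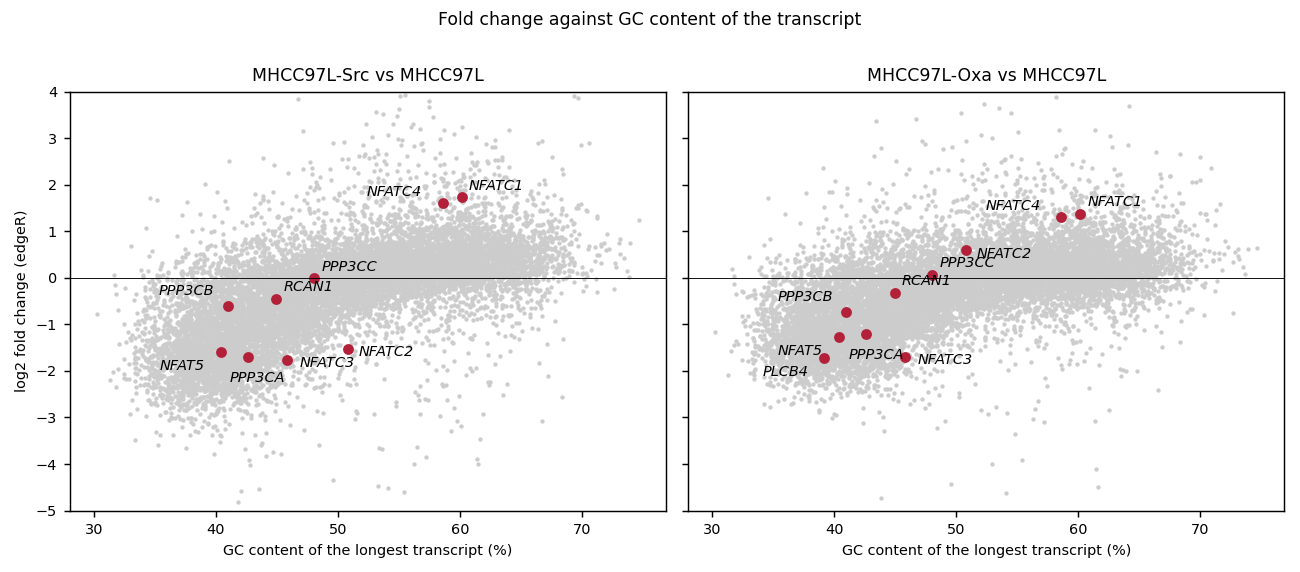
Log2 fold change from MHCC97L against the GC content (%) of the longest transcript for all genes tested (grey) and the 10 NFAT and calcineurin genes (red, PLCB4 only in the right panel), with 25 and 15 genes beyond the axis left out. In MHCC97L-Src NFATC1 and NFATC4 lie at 1.74 and 1.60, where genes over 55% GC have a median of 0.34, and NFAT5 lies at -1.60, where genes under 45% GC have a median of -1.29.

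MHCC97L replicate 1 was above all 8 other libraries for NFATC3, NFAT5, PPP3CA, PPP3CB, RCAN1 and PLCB4, the 6 genes with the lowest GC content, 39.2% to 45.8%. Its ratio to the mean of MHCC97L replicates 2 and 3 was 4.91 for NFATC3, 4.71 for PPP3CA and 4.13 for NFAT5, and 0.461 for NFATC1 and 0.896 for NFATC4. With each library corrected for GC content and length, the log2 fold change of NFATC1 was 1.45 ± 0.30 in MHCC97L-Src and 1.26 ± 0.29 in MHCC97L-Oxa, and that of NFATC4 was 1.33 ± 0.23 and 1.17 ± 0.22. After correction NFATC3 was at -0.93 ± 0.34 and -0.97 ± 0.35, NFAT5 at -0.03 ± 0.29 and -0.04 ± 0.28, and PPP3CA at -0.52 ± 0.26 and -0.21 ± 0.25. RCAN1 changed sign, to 0.19 ± 0.34 and 0.22 ± 0.28. PPP3CB did so in MHCC97L-Src, at 0.19 ± 0.47. PLCB4, tested in MHCC97L-Oxa only, was at -0.66 ± 0.72. The corrected fit called NFATC1 and NFATC4 in both comparisons, where it called 10.6% and 12.9% of all genes, and it called 0 of the 10 genes in either with the replicate block in the same fit. These calls restate the choice of the genes and support nothing further.

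**Figure D4:**
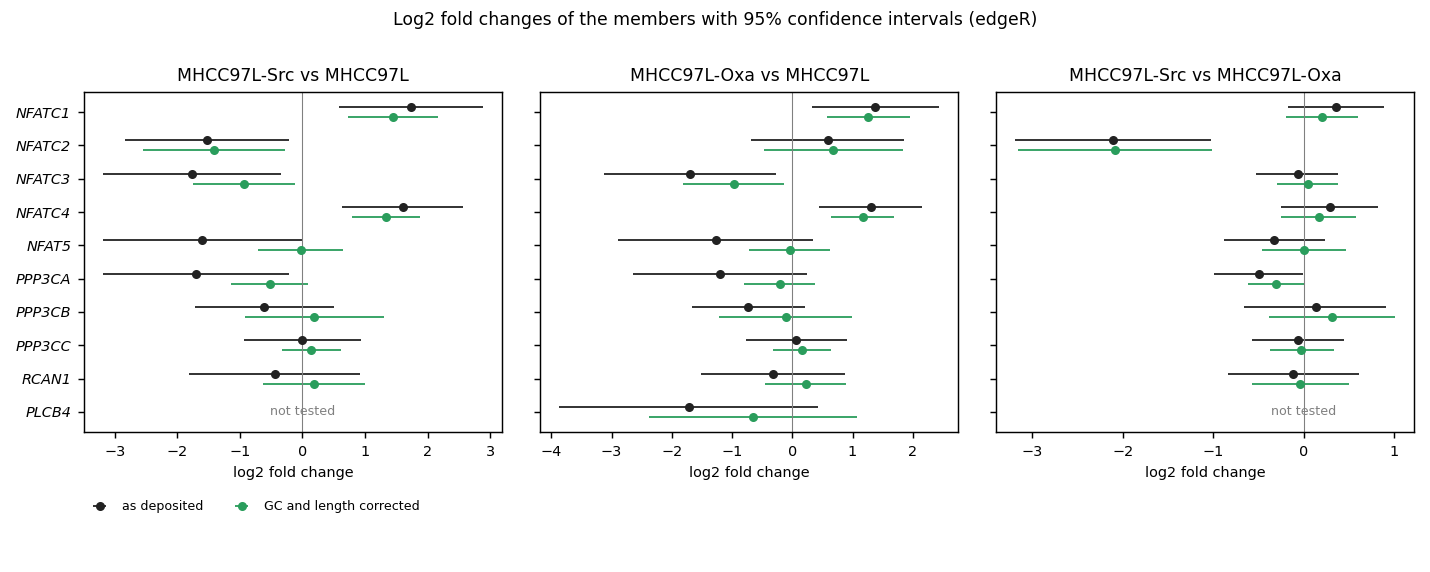
Log2 fold changes with 95% confidence intervals (edgeR) for the 10 genes in the 3 comparisons, from the counts as deposited (black) and after correction for GC content and length (green). NFATC1 and NFATC4 stay above 0 in both comparisons with MHCC97L, NFAT5 moves from -1.60 to -0.03 in MHCC97L-Src, and NFATC2 is the gene farthest from 0 between the resistant lines, at -2.11.

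Over the 9 libraries, the log2 CPM of NFATC1 and NFATC4 had a Pearson correlation of 0.95. The genes most like NFATC1 among 12282 were IRX3 at 0.998, PHC2 at 0.997 and CNTNAP1 at 0.996, and those most like NFATC4 were MISP3 at 0.993, VMAC at 0.991 and DNAAF3 at 0.990. All 6 had a GC content between 56.9% and 67.1%. The genes most like PLCB4 were ZFX at 0.968, RRM2B at 0.966 and PGM3 at 0.962, with a GC content of 36.4% to 39.2%, and those most like RCAN1 were LSM11 and SNX9 at 0.969 and TSG101 at 0.962. NFATC3 and PPP3CA correlated at 0.96, and NFATC1 and NFATC3 at -0.92. The 9 libraries share the difference between lines and the GC shifts of MHCC97L replicate 1 and MHCC97L-Src replicate 2, so these correlations are descriptions.

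Between the resistant lines, a comparison without the MHCC97L libraries, 1 of the 9 genes tested was called by edgeR, against 4.64% of 11994 genes. The genes were picked with results of the same resistant libraries known, so this test is not independent of that choice. Here too the log2 fold change moved with transcript GC content, with a Spearman correlation of 0.45 over 11899 genes. Its median was -0.24 among genes under 45% GC and 0.15 among genes over 55% GC. NFATC2 was lower in MHCC97L-Src than in MHCC97L-Oxa by a log2 fold change of -2.11 ± 0.49 (95% confidence interval -3.19 to -1.03, adjusted p = 0.0384). All 3 MHCC97L-Src libraries, at 5 to 15 counts, were below the 3 MHCC97L-Oxa libraries, at 23 to 66 counts. Over 15 alternatives the adjusted p ranged from 0.00228 to 0.22 with the same sign throughout, and 8 kept the call. The call was lost without MHCC97L-Src replicate 1 (adjusted p = 0.0663), MHCC97L-Oxa replicate 1 (0.118) or MHCC97L-Oxa replicate 2 (0.196). With the FPKM values the difference was -1.06 on the log2(FPKM + 0.1) scale (limma, adjusted p = 0.0876).

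The other 8 genes did not pass this test. PPP3CA was lower in every MHCC97L-Src library, as were 14.4% of all genes, with a log2 fold change of -0.50 (95% confidence interval -0.99 to -0.01, edgeR adjusted p = 0.249). NFATC1 was higher in every MHCC97L-Src library, as were 13.2% of all genes, at 0.35 (-0.18 to 0.88, adjusted p = 0.455). The interval of NFATC4 reached from -0.25 to 0.82, that of NFAT5 from -0.88 to 0.23, and that of NFATC3 from -0.53 to 0.38. For PPP3CB, PPP3CC and RCAN1 the intervals were -0.66 to 0.91, -0.57 to 0.44 and -0.84 to 0.61. A difference of 1 on the log2 scale lies outside each of these 8 intervals, but smaller ones do not.

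The rest of the pathway was described with 8 lists of 75 genes, chosen with earlier results of these data known. Of them 57 passed the low count filter in each comparison. In MHCC97L-Src against MHCC97L 1 list gene rose and 0 fell, in MHCC97L-Oxa against MHCC97L 1 rose and 0 fell, and in MHCC97L-Src against MHCC97L-Oxa 0 were higher and 4 lower, where 2.13%, 0.953% and 4.64% of all genes were called in either direction, and 2.52% were lower in MHCC97L-Src in the last. The median log2 fold change of the list genes was -0.33, -0.18 and -0.10 in these comparisons, beside -0.16, -0.19 and -0.02 over all genes tested. By list, the medians in MHCC97L-Src against MHCC97L ran from -0.74 for the 8 G proteins and WNT ligands tested and -0.72 for the 9 NFAT kinases to 0.20 for the 6 NFAT5 target genes. In MHCC97L-Oxa against MHCC97L they ran from -0.54 for the NFAT kinases to 0.40 for the NFAT5 target genes, and between the resistant lines from -0.27 for the 4 calmodulins and calmodulin kinases to 0.05 for the 6 calcineurin partners.

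The 12 genes of calcium release and store-operated entry went both ways in MHCC97L-Src against MHCC97L. Their log2 fold changes ran from -1.73 to 2.28, with a median of -0.34. The list gene STIM1 was at -0.36 ± 0.24 there (edgeR, adjusted p = 0.178), and after GC correction at -0.59 (adjusted p = 0.0162). Among the 12, ORAI3, a channel subunit of store-operated calcium entry, rose in MHCC97L-Src. It had 125, 212 and 187 counts in MHCC97L, against 749, 882 and 736 for MHCC97L-Src and 696, 614 and 551 for MHCC97L-Oxa. All resistant libraries were above all MHCC97L libraries. ORAI3 had a log2 difference of 2.28 ± 0.36 in MHCC97L-Src (edgeR, adjusted p = 0.0207) and 1.81 ± 0.34 in MHCC97L-Oxa (adjusted p = 0.058), and in MHCC97L-Src after GC correction it was 1.86 (adjusted p = 0.000928). The MHCC97L-Src call was lost without MHCC97L replicate 3 (adjusted p = 0.0875) or without MHCC97L-Src replicates 1, 2 or 3 (0.0807, 0.105 and 0.0854). ATP2B4, a calcium pump of the plasma membrane that binds calcineurin, was lower in MHCC97L-Src than in MHCC97L-Oxa by -0.65 ± 0.15 (edgeR, adjusted p = 0.0345). Its counts were 962, 727 and 1173 in MHCC97L-Src against 1664, 1742 and 1408 in MHCC97L-Oxa, without overlap, and 4411, 1113 and 1124 in MHCC97L. From MHCC97L its log2 fold change was -1.07 ± 0.49 in MHCC97L-Src and -0.42 ± 0.48 in MHCC97L-Oxa. Without MHCC97L replicate 1 these were -0.14 ± 0.20 and 0.56 ± 0.10.

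VEGFA, the angiogenic growth factor, was the 1 gene called among the 4 of 12 calcineurin-NFAT target genes that could be tested. The 4 went both ways. Their log2 fold changes ran from -1.57 to 0.71 in MHCC97L-Src against MHCC97L, with a median of -0.01. In MHCC97L-Oxa against MHCC97L they ran from -1.23 to 1.21, with a median of -0.06. The study names VEGFA as altered in these libraries, so it is not independent evidence. It had 2684, 3108 and 2806 counts in MHCC97L, against 4379, 3670 and 4592 for MHCC97L-Src and 6409, 7209 and 6317 for MHCC97L-Oxa. The 3 lines did not overlap, with MHCC97L lowest and MHCC97L-Oxa highest. VEGFA rose in MHCC97L-Oxa by 1.21 ± 0.19 (edgeR, adjusted p = 0.0325), gave 0.66 ± 0.21 in MHCC97L-Src (adjusted p = 0.112), and was lower in MHCC97L-Src than in MHCC97L-Oxa by -0.55 ± 0.10 (adjusted p = 0.0129). The MHCC97L-Oxa call was lost without MHCC97L replicate 3 (adjusted p = 0.156) or without MHCC97L-Oxa replicates 1, 2 or 3 (0.243, 0.279 and 0.245).

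RCAN3, a relative of RCAN1, was the 1 gene called among the 6 of 9 calcineurin partners tested. It had 228, 197 and 214 counts in MHCC97L-Src against 403, 397 and 367 in MHCC97L-Oxa, with 280 to 330 in MHCC97L between them. RCAN3 was lower in MHCC97L-Src than in MHCC97L-Oxa by -0.76 ± 0.16 (edgeR, adjusted p = 0.0247), and after GC correction by -0.50 (adjusted p = 0.0966). Among the 6 osmotic target genes of NFAT5, AKR1B1, the aldose reductase that makes sorbitol, had 10978, 11007 and 10185 counts in MHCC97L-Src against 17349, 17573 and 18663 in MHCC97L-Oxa, and was lower in MHCC97L-Src by -0.62 ± 0.11 (adjusted p = 0.0129). The calls of RCAN3, ATP2B4, VEGFA and AKR1B1 between the resistant lines were each lost without MHCC97L-Src replicate 1 (adjusted p = 0.119, 0.147, 0.0967 and 0.105) and without each MHCC97L-Oxa library in turn (lowest 0.0592, highest 0.199).

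**Figure D5:**
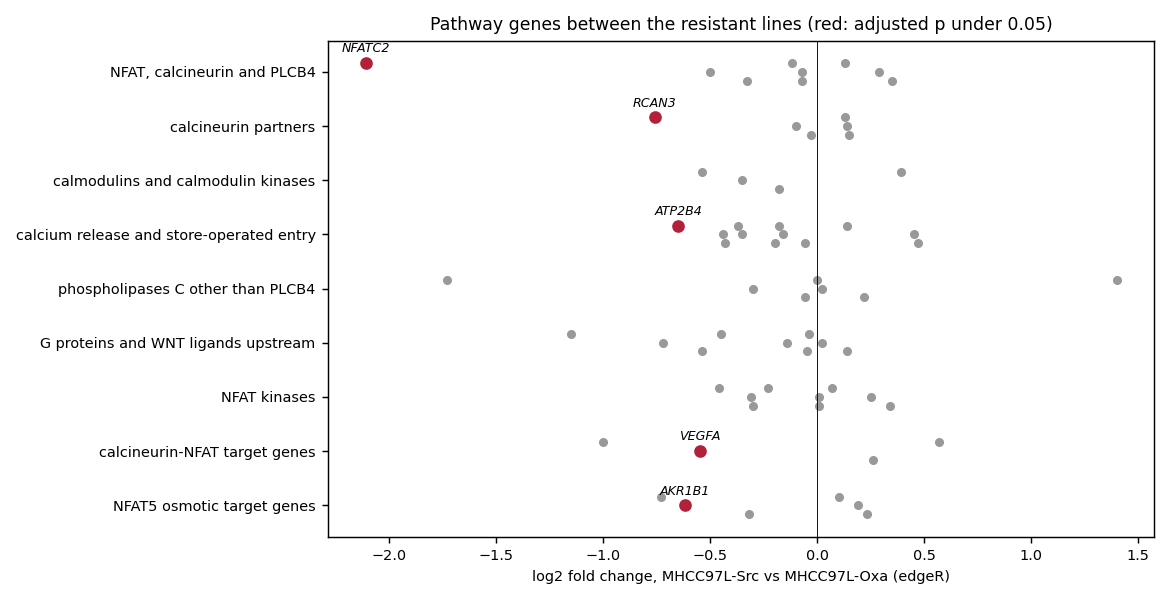
Log2 fold change between MHCC97L-Src and MHCC97L-Oxa (edgeR) for the genes tested of the 10 described and of the 8 pathway lists, with genes at an adjusted p under 0.05 in red. The 5 red genes, NFATC2, RCAN3, ATP2B4, VEGFA and AKR1B1, all lie below 0, between -2.11 and -0.55.

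The remaining 4 lists held no called gene in any of the 3 comparisons. Among the calmodulins, CALM2 was at -1.29 ± 0.49 in MHCC97L-Src against MHCC97L (edgeR, adjusted p = 0.136), and CALM3 at 0.39 ± 0.13 between the resistant lines (adjusted p = 0.125). Of the phospholipases C, which produce the calcium signal, PLCE1 was at -3.01 ± 0.94 in MHCC97L-Src (adjusted p = 0.11) and PLCB1 at -1.75 ± 0.85 (adjusted p = 0.2). Without MHCC97L replicate 1 they were at -2.19 and -0.60, and after GC correction at -1.77 and -0.38. PLCB2, a close relative of PLCB4 and on the study's own Wnt list, had 33, 25 and 21 counts in MHCC97L-Src against 8, 10 and 14 in MHCC97L-Oxa, a difference of 1.40 ± 0.40 (adjusted p = 0.0815), and PLCE1 was at -1.73 ± 0.50 in the same comparison (adjusted p = 0.0862). For WNT5A, a ligand of the calcium branch of Wnt signaling that the study also lists, counts were 3622, 1447 and 1339 in MHCC97L, against 641, 382 and 953 for MHCC97L-Src and 802, 771 and 581 for MHCC97L-Oxa, and the log2 fold change in MHCC97L-Src was -1.59 ± 0.42 (adjusted p = 0.0905). Its receptor ROR1 was at -2.63 ± 0.79 (adjusted p = 0.106). Without MHCC97L replicate 1 WNT5A was at -1.01 and ROR1 at -1.54, and after GC correction at -0.64 and -1.65. WNT11 was at -0.72 ± 0.26 between the resistant lines (adjusted p = 0.154). Among the NFAT kinases, DYRK1A was at -1.47 ± 0.75 and MAPK8 at -1.31 ± 0.69 in MHCC97L-Src (adjusted p = 0.219 and 0.23), but at -0.08 and -0.20 without MHCC97L replicate 1, as CALM2 was at -0.48. GSK3A was at 0.34 ± 0.14 and CSNK1A1 at -0.46 ± 0.22 between the resistant lines (adjusted p = 0.224 and 0.292).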

How the data were processed

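Poly(A) RNA of 9 libraries was prepared with a stranded kit and sequenced. The submitters' processing notes name Trimmomatic 0.36, HISAT2 2.2.1.0 and GRCh38.p12, while the counting program is not given in the sources used here. The authors deposited raw counts per gene without normalization, and FPKM values (scaled to transcript length and library size), for 20030 genes, where 245 to 297 genes per library had a count but an FPKM of 0. The labels gave the line of every library.

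Lines were compared with edgeR 4.0.16 in R 4.3.3 (quasi-likelihood test on the counts of 6 libraries, filterByExpr with its minimum count of 10, TMM, Benjamini-Hochberg adjustment over all genes tested). Each standard error was taken as |log2 fold change| over the root of its F statistic. P-values measure the spread between libraries, which may be technical. GC content and length, known for 19343 genes, came from the longest transcript in GENCODE 29, and their correction used natural splines (5 degrees of freedom each) as offsets. Log2 CPM used a prior count of 2. limma 3.58.1 (pseudocounts 1 and 0.1), DESeq2 1.42.0, RLE size factors, no filter, 1 fit of 9 libraries, the replicate number as a block and leaving out each library were alternatives. GC correction without MHCC97L replicate 1 was chosen after seeing the data.

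The members and lists were chosen with earlier results of these data known. List genes were named when called (at most 3 per list and comparison by fold), or, for lists with none, as the 2 of largest fold in MHCC97L-Src against MHCC97L and the 2 between the resistant lines. A gene named by this rule is not reported here. The likeness rule took the 3 genes with the highest Pearson correlation. Scripts were tested on simulated counts.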

Additional observations from a re-analysis of the deposited data

Results flagged for a closer look

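In the direct test of MHCC97L-Src against MHCC97L-Oxa (edgeR, log2 fold change), 1 of the 9 genes tested and 4 of the 57 list genes tested were called, all lower in MHCC97L-Src, where 4.64% of all genes were called and 2.52% were called lower. NFATC2 was lower in MHCC97L-Src by -2.11 (adjusted p = 0.0384). RCAN3 was lower by -0.76 (adjusted p = 0.0247), ATP2B4 by -0.65 (adjusted p = 0.0345), AKR1B1 by -0.62 (adjusted p = 0.0129) and VEGFA by -0.55 (adjusted p = 0.0129). Each gene was lower in all 3 MHCC97L-Src libraries than in all 3 MHCC97L-Oxa libraries, as were 14.4% of all genes, and all 5 calls were lost with the 9 libraries in 1 fit.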

How the results depend on the processing

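The number of genes called rested on MHCC97L and on single libraries. In MHCC97L-Src against MHCC97L it was 256 as deposited, 2114 with DESeq2, 702 without a filter, 1956 with all 9 libraries, 988 with the replicate block, 1270 after GC and length correction, 215 corrected with the block, 1375 after correction without MHCC97L replicate 1, and 22 to 3419 leaving out 1 library (672, 3419 and 22 without MHCC97L replicates 1, 2 and 3, and 69, 47 and 27 without MHCC97L-Src replicates 1, 2 and 3). In MHCC97L-Oxa against MHCC97L it was 115, then 893 with DESeq2, 495 with 9 libraries, 1558 corrected, 599 corrected with the block, 252 and 256 with limma on FPKM (pseudocounts 1 and 0.1), 2378 corrected without MHCC97L replicate 1, and 2 to 2705 leaving out 1 library (2251 and 2705 without MHCC97L replicates 1 and 2, and 2 without any other). Between the resistant lines it was 556, then 839 with DESeq2, 86 with 9 libraries, 1156 corrected, and 167 to 1617 leaving out 1 library (208, 1033 and 1617 without MHCC97L-Src replicates 1, 2 and 3, and 243, 167 and 231 without MHCC97L-Oxa replicates 1, 2 and 3). Correction moved the split of higher to lower calls from 172 and 84 to 658 and 612 in MHCC97L-Src and from 93 and 22 to 782 and 776 in MHCC97L-Oxa. Deviations of same-numbered libraries from the mean of their line had correlations of -0.627 to 0.413. These were not corrected for GC content, so they cannot decide whether the replicate number pairs the libraries. The replicate block gave 988, 92 and 406 calls in the 3 comparisons.

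Of the 10 genes, in MHCC97L-Src against MHCC97L 0 were called as deposited, 4 with DESeq2, 2 with 9 libraries, 2 corrected, 0 corrected with the block, 2 corrected without MHCC97L replicate 1, and 0 to 6 leaving out 1 library (6 without MHCC97L replicate 2, where 27.8% of all genes were called). In MHCC97L-Oxa it was 0, then 1 with DESeq2, 2 corrected, 0 corrected with the block, 2 corrected without MHCC97L replicate 1, and 0 to 5 leaving out 1 library (2 and 5 without MHCC97L replicates 1 and 2). Between the resistant lines it was 1, and 0 with 9 libraries, with correction and block, with limma on FPKM at either pseudocount, and 0 to 1 leaving out 1 library.

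Of the list genes, in MHCC97L-Src 1 was called, then 11 with DESeq2, 3 without a filter, 10 with 9 libraries, 6 with the block, 5 corrected, 6 corrected without MHCC97L replicate 1, and 0 to 19 leaving out 1 library. In MHCC97L-Oxa it was 1, then 3 with DESeq2, 2 with RLE, 2 without a filter, 3 with 9 libraries, 0 with the block, 5 corrected, 4 corrected with the block, 2 with limma at either pseudocount, 10 corrected without MHCC97L replicate 1, and 0 to 16 leaving out 1 library. Between the resistant lines it was 4, then 0 with 9 libraries, 2 with the block, and 0 to 14 leaving out 1 library.

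Signs turned in MHCC97L-Src for CALM2 (0.07 corrected, 0.06 corrected with the block, 0.05 corrected without MHCC97L replicate 1), MAPK8 (0.16, 0.13 and 0.26 under these settings) and DYRK1A (0.11 corrected with the block, 0.48 corrected without MHCC97L replicate 1). Between the resistant lines they turned for NFATC3 (0.04 corrected, 0.05 corrected with the block, -0.19 to 0.05 leaving out 1 library), NFAT5 (0.00 corrected, 0.01 corrected with the block), PPP3CB (-0.05 and -0.10 with limma, -0.30 to 0.42 leaving out 1 library), PPP3CC (-0.26 to 0.07) and RCAN1 (-0.62 to 0.11), none of them called. The cause was not tested. PLCB4 and NFATC2 had low counts, 0 to 66 per library, and the part of depth in their results was not tested.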

Other observations

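CSNK1E, a casein kinase 1 gene in the list of NFAT kinases, had 1 to 3 counts in every library but an FPKM of 25.6 to 60.8, so its counts and FPKM values do not describe the same amount of RNA and no level is given for it. For the 9 other genes that had both values in all libraries, CPM divided by FPKM moved by less: from 7.27 to 7.78 for NFATC3 and from 7.8 to 10.3 for NFATC4.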
